A study of Mus musculus with 4 samples.

Results

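Myosin light chains were examined in heart ventricles of mice at postnatal day 14, together with Mylk3, the light chain kinase of heart muscle. The 9 genes listed by name were Myl1, Myl2, Myl3, Myl4, Myl6, Myl7, Myl9, Mylpf and Mylk3. A row with the same symbol was found for 8 of them among 36814 rows of the deposited table, and for none under the symbol Myl6. RNA sequencing compared 2 mice labelled wild type with 2 Hnrnpu mutant mice, all on a mixed C57BL/6 and 129 S4 background, with a male and a female in each group. The mutants came from crossing a conditional Hnrnpu allele with a Ckmm-Cre transgene, in which the muscle creatine kinase promoter drives the Cre recombinase. The labels do not say which of these alleles the wild type animals carry. That promoter is known to act in heart and skeletal muscle cells and not in the other cells of the ventricle. Atria had been removed before RNA extraction, and whether the animals were littermates is not stated.

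Each myosin head carries a pair of light chains wound around its lever arm, an essential and a regulatory chain. Different genes supply them in different muscles: Myl3 and Myl2 in the ventricle, Myl4 and Myl7 in the atrium and the embryonic heart, Myl1 and Mylpf in fast skeletal muscle, and Myl6 and Myl9 in smooth muscle and other cells. Phosphorylation of the regulatory chain raises the force of contraction, and Mylk3 is the kinase that adds this phosphate to Myl2 in cardiomyocytes. Chains of the atrium are known to reappear in stressed ventricles.

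The sequences in front of the genes are shown for the single gene called, Myl1, for Myl3, its ventricular counterpart among the essential chains, and for Myl7, the atrial regulatory chain. Each is the 250 bases before the start of transcription in RefSeq (GRCm38.p6), written 5′ to 3′ on the strand of the gene. Capitals mark matches on either strand to the E-box (CANNTG), the TATA box (TATAAA), the MCAT element of TEAD factors (CATTCC), the CArG box of serum response factor and the MEF2 box.
Myl1, chr1:66945057-66945306, minus strand: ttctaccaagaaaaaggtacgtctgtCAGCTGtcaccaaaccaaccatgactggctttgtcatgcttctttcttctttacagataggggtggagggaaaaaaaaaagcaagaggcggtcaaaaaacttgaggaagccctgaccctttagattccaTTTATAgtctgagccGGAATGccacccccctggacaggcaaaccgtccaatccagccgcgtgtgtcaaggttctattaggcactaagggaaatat
Myl3, chr9:110763428-110763677, plus strand: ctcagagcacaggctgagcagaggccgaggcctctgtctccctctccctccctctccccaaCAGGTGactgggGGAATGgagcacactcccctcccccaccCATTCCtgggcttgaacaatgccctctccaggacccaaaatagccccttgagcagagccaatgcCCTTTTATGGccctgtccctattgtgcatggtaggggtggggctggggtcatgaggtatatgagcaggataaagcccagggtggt
Myl7, chr11:5898783-5899032, minus strand: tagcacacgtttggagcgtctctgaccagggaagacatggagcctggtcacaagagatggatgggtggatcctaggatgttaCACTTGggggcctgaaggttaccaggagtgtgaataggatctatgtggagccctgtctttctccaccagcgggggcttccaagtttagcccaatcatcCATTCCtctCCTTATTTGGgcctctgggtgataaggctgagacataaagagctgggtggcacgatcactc

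In the Myl1 window an E-box match began 224 bases before the start, a TATA box match 95 bases and an MCAT match 80 bases before it, and no CArG or MEF2 match was found. The Myl3 window held a CArG match 85 bases before the start and MCAT matches at 177 and 149 bases, and the Myl7 window a CArG match at 61 bases beside an MCAT match at 70 bases. No marked match in these windows overlapped another. A CArG match was found in 4 of the 12 windows that RefSeq gives for the 9 genes (those of Myl3, Myl7, Myl9 and 1 of the Myl6 windows), and in 1.47% of all 32851 windows. No MEF2 match was found in the 12 windows, against 2.92% of all windows. With so small a share over all windows, an absence in 12 windows says little. An E-box match occurred in 66.2% of all windows, an MCAT match in 12.6% and a TATA box match in 12.4%. These matches describe letters and do not show that a factor was bound.

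The deposited table has 1 RPKM value per group, a read density scaled to transcript length and sequencing depth, so values per animal were not analysed here and no spread stands beside a level. The test is the authors' own, and "called" means an adjusted p below 0.05 there. The 95% interval given with a change was derived from the deposited p on a normal scale. Hnrnpu itself stood at 32.7 RPKM in controls and 15.2 in mutants, with adjusted p = 0.438 in the authors' deposited table, so the targeted gene was not called. All 8 cardiomyocyte markers examined were abundant in both groups, from 52.2 RPKM for Ryr2 to 2380 RPKM for Actc1 in controls and from 16.3 to 4530 RPKM for the same genes in mutants, and none was called by the authors' deposited test, with 1 of them, Ryr2, at an unadjusted p under 0.05. In bulk tissue, fewer cells of a type and less RNA per cell cannot be told apart.

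Of the 8 genes with a row, 1 rose, the skeletal muscle chain Myl1, from 0.145 to 3.29 RPKM, and none fell. Myl2 and Myl3, the chains of the ventricle, remained by far the most abundant in both groups. Across all 24454 rows tested, 2.03% were called higher and 1.48% lower, or 3.51% in either direction. The median log2 fold change of the 8 genes was -0.24, with 3 above control and 5 below, beside a median of -0.03 over the 20922 rows above 0 in both groups. The other 7 genes had log2 fold changes between -0.66 and 0.68, and the smallest p among them in the authors' deposited table was 0.169, that of Myl4. Myl1 was likewise the single call at the other thresholds tried. At an adjusted p below 0.1 the table has 2.78% of rows higher and 2.14% lower (4.92% together), below 0.01 it has 1.25% higher and 0.781% lower, and at an unadjusted p below 0.05 it has 6.4% higher and 6.2% lower (12.6% together). Among the 11292 rows averaging 1 RPKM or more, 3.35% were called higher and 1.93% lower (5.28% together), or 3.95% and 2.36% (6.31% together) with the adjustment recomputed over those rows. Myl1 is among these rows only through its mutant value, so its call there is no separate support.

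**Figure D1:**
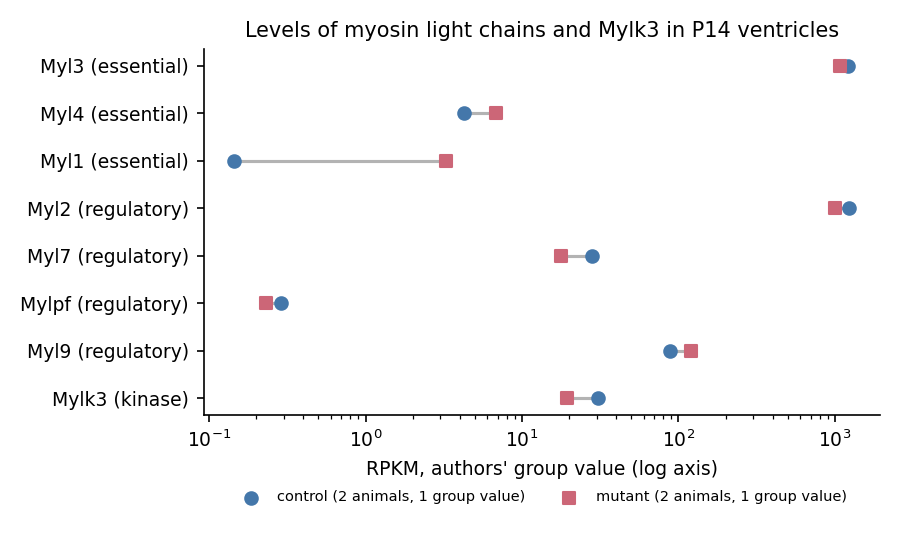
Level of each gene in RPKM on a log axis, as the authors' value for control (circles) and mutant (squares), with the class of chain in parentheses. Myl2 and Myl3 lie near 1000 RPKM in both groups, and Myl1 is the only gene whose values are far apart, at 0.145 and 3.29 RPKM.

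In control ventricles the order was Myl2 at 1230 RPKM, Myl3 at 1220, Myl9 at 88.5, Mylk3 at 30.8, Myl7 at 27.9, Myl4 at 4.28, Mylpf at 0.287 and Myl1 at 0.145. In mutant ventricles Myl3 was listed above Myl2, and Myl1 above Mylpf, with the other places as in control. Which neighbours in this order differ beyond the spread between animals could not be tested, since no value per animal was used.

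The essential chain of the ventricle, Myl3 (mm9 chromosome 9, 110666150 to 110672308, plus strand), stood at 1220 RPKM in controls and 1080 in mutants. Among protein coding rows it ranked at place 7 in control and 6 in mutant. The authors' deposited table gives it a fold of 0.891 with p = 0.856, and the interval of its log2 change ran from -1.96 to 1.63. Myl2, the regulatory chain of the ventricle (mm9 chromosome 5, 122550960 to 122563481, plus strand), stood at 1230 RPKM in controls and 997 in mutants. Its fold in the authors' deposited table was 0.809 with p = 0.793, and its interval ran from -2.59 to 1.98. Changes of 3-fold either way lie inside both intervals, so the data do not show that these transcripts were unchanged. Ccdc63, on the other strand, overlaps Myl2 and was far lower, with 0.160 and 0.0349 RPKM. Such width was shared by abundant rows: the error implied by the deposited p had a median of 1.04 on the log2 scale over 20 rows with a mean of at least 500 RPKM, against 0.53 over 1972 rows between 10 and 50 RPKM.

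Myl2 and Myl3 stayed close to each other in each group. The ratio of the Myl3 level to the Myl2 level was 0.992 in control and 1.08 in mutant. The summed level of the 3 sarcomeric essential chains (Myl1, Myl3, Myl4) was 1224 RPKM in controls against 1090 in mutants. For the 3 sarcomeric regulatory chains (Myl2, Myl7, Mylpf) the sums were 1258 and 1015 RPKM. Sarcomeric heavy chains, the motor subunits that carry these light chains, summed to 1737 RPKM in controls against 868 in mutants over 9 genes. Essential chains per heavy chain level were therefore 0.705 in control and 1.26 in mutant, and regulatory chains 0.724 and 1.17. Most of the heavy chain sum is Myh6, the adult cardiac heavy chain, at 1660 RPKM in controls against 840 in mutants, which was not called in the authors' deposited table (p = 0.76). These ratios come from group values and have no test.

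The essential chain of the atrium and embryonic heart, Myl4 (mm9 chromosome 11, 104411977 to 104457067, plus strand), stood at 4.28 RPKM in controls and 6.85 in mutants. In the authors' deposited table this was 1.60-fold with p = 0.169 and adjusted p = 0.681, and the interval of the log2 change ran from -0.29 to 1.65. Rows on the other strand lie inside the Myl4 locus, among them a row of the noncoding Gm11665 at 0.0468 RPKM in controls against 0.698 in mutants. That row was not called either (adjusted p = 0.0855 in the authors' deposited table), and use of strand in counting is not given in the sources used here. Myl7, the regulatory chain of the atrium (mm9 chromosome 11, 5796640 to 5798785, minus strand), stood at 27.9 RPKM in controls and 17.7 in mutants. The authors' deposited table gives 0.634-fold, p = 0.214 and adjusted p = 0.744, with an interval from -1.69 to 0.38. The atrial pair was thus listed on opposite sides of control, and neither chain was called.

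Atrial markers were read beside this pair. Of 8 markers 2 rose: Nppa, atrial natriuretic peptide, from 58.2 to 4370 RPKM, and Dkk3, a secreted glycoprotein, from 3.74 to 13.6 RPKM. Sln, sarcolipin, an atrial inhibitor of the calcium pump, stood at 6.46 RPKM in controls and 1.66 in mutants (adjusted p = 0.0846 in the authors' deposited table). Bmp10, a growth factor of the atrium, had 0.0457 RPKM in controls and is listed at 0 in mutants. Without Nppa the other 7 markers summed to 21.5 RPKM in controls against 24.2 in mutants. The part of atrial tissue in the values of Myl4 and Myl7 was not tested.

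**Figure D2:**
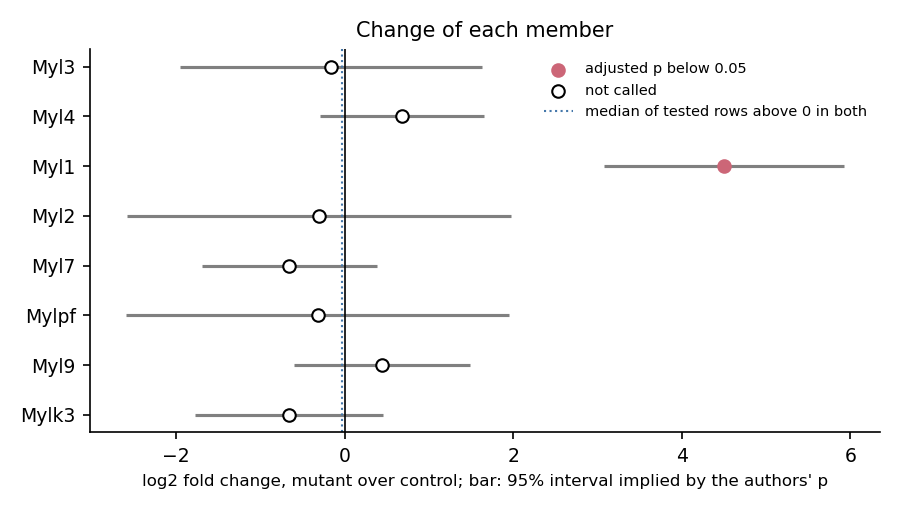
Log2 fold change of each gene, mutant over control, with the 95% interval implied by the authors' p as a bar and the median of the tested rows above 0 in both groups as a dotted line. The interval of Myl1 runs from 3.08 to 5.92, and those of the other 7 genes include 0.

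Myl1, the essential chain of fast skeletal muscle (mm9 chromosome 1, 66970869 to 66991978, minus strand), rose from 0.145 to 3.29 RPKM. This was 22.6-fold in the authors' deposited table, with adjusted p = 1.94e-07, and the interval of the fold ran from 8.44 to 60.6. Its log2 change of 4.50 became 3.79 with 0.1 RPKM added to both groups and 1.91 with 1 RPKM added, since the control value is low. Among the 482 called rises with a control value above 0, its fold ranked at place 43, and their median log2 change was 2.38 against 4.50 for Myl1. By the worth of a single read, taken from short RNA genes seen in 1 group alone and from the 1082 bases of its reference transcript, the value rests on about 8 to 9 reads in the control libraries together. In the mutant libraries the same estimate gave 397 to 544 reads. For a transcript of a kilobase, a read was worth 0.0171 to 0.0201 RPKM in control and 0.00654 to 0.00897 in mutant. By this estimate the mutant libraries were sequenced more deeply, so read numbers of the groups cannot be compared directly, while RPKM is scaled to depth. The gene length behind the RPKM is not given in the sources used here, so these are rough figures. How the reads divide between the animals of a group was not analysed here.

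In level, Myl1 remained a minor chain. It stood at 0.0339 of the Myl4 level in control and 0.480 in mutant, and at 0.0119% and 0.305% of the Myl3 level. No other row overlaps the Myl1 locus. Acadl, an enzyme of fatty acid oxidation and the abundant neighbour within 200000 bases, stood at 146 RPKM in controls and 172 in mutants, and Lancl1 at 2.71 and 4.54 RPKM. Another neighbour, 1110028C15Rik, stood at 3.48 RPKM in controls and 1.67 in mutants (p = 0.0379, adjusted p = 0.347 in the authors' deposited table). None of the 4 protein coding neighbours tested was called.

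Mylpf, the regulatory chain that pairs with Myl1 in fast fibres (mm9 chromosome 7, 134355122 to 134357812, plus strand), stood at 0.287 RPKM in controls and 0.230 in mutants. The authors' deposited table gives p = 0.781, and the interval ran from -2.60 to 1.95, resting on about 11 to 13 reads in control and 20 to 27 in mutant by the same estimate. The ratio of the Myl1 level to the Mylpf level was 0.505 in control and 14.3 in mutant. Whether the change of Myl1 differed from that of Mylpf was not tested. Their intervals do not overlap, but both rest on few control reads, for which the normal scale of the intervals was not checked.

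Markers of skeletal muscle were read beside Myl1. Of 12 markers, 1 rose, 1 fell and 2 were at 0 in both groups, Myod1 and Myog, the regulators that define skeletal muscle cells. Mybpc2, the fast form of myosin-binding protein C, rose from 2.31 to 13.6 RPKM, and Tnni2, the fast form of troponin I, fell from 1.03 to 0.0633 RPKM. The 3 fast heavy chains among these markers were close to 0, with Myh1 at 0.0356 and 0.0176 RPKM, Myh2 at 0.0296 and 0.0319 RPKM and Myh4 at 0.00566 and 0.00730 RPKM, and Pvalb, parvalbumin, is listed at 0 in controls and had 0.0361 RPKM in mutants. The 12 markers summed to 3.89 RPKM in controls against 14.4 in mutants, most of it Mybpc2. The part of skeletal muscle cells in the Myl1 value was not tested beyond these levels.

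By the rule of likeness, the genes nearest to Myl1 in log2 fold change, out of 5376 with a mean level within 2 times of its own, were Slc7a3, an amino acid transporter, Gdf6, a growth factor, and Col12a1, a collagen. Their log2 changes were 4.48, 4.35 and 4.35. The likeness rests on 2 group values and is a description.

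**Figure D3:**
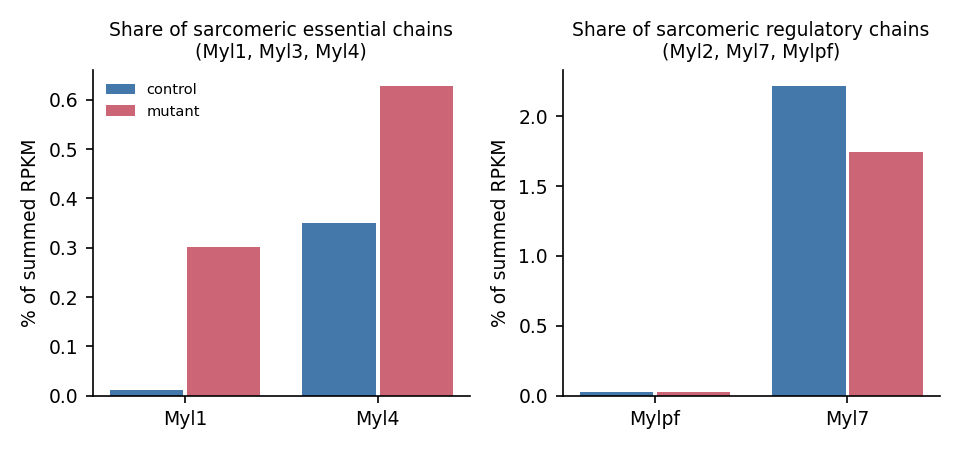
Share of the minor chains in the summed RPKM of sarcomeric essential chains (left) and sarcomeric regulatory chains (right), in percent, for the group values of control and mutant; there is no error bar because each group has 1 value. The bars of Myl1 stand at 0.0118% in control and 0.302% in mutant and those of Myl4 at 0.350% and 0.628%. Those of Mylpf stand at 0.0228% and 0.0227%, and those of Myl7 at 2.22% and 1.74%.

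Isoform shares put these levels on a common scale. Myl3 made up 99.6% of the sarcomeric essential chains in control and 99.1% in mutant. The share of Myl4 was 0.350% in control and 0.628% in mutant, and that of Myl1 was 0.0118% and 0.302%. Myl2 made up 97.8% of the sarcomeric regulatory chains in control and 98.2% in mutant, with Myl7 at 2.22% and 1.74% and Mylpf at 0.0228% and 0.0227%. With Myl9, Myl10, Myl12a and Myl12b also counted among the regulatory chains, the share of Myl2 was 88.5% in control and 81.1% in mutant. The order of the groups thus depends on which chains are counted. These shares have no replicate check and no test.

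Myl9, a regulatory chain of smooth muscle and other cells (mm9 chromosome 2, 156601156 to 156607394, plus strand), stood at 88.5 RPKM in controls and 120 in mutants. In the authors' deposited table the fold was 1.36 with p = 0.404, and the interval ran from -0.60 to 1.49. Of 7 smooth muscle markers 1 rose, Tagln, a protein that binds actin, from 9.76 to 42.6 RPKM, and none fell. Acta2, smooth muscle actin, stood at 158 RPKM in controls and 802 in mutants (adjusted p = 0.171 in the authors' deposited table), Cnn1, calponin, at 0.619 and 1.74 RPKM, and Myh11, the smooth muscle heavy chain, at 3.93 and 2.95 RPKM. Smtn, smoothelin, stood at 24.3 RPKM in controls and 9.22 in mutants (p = 0.012, adjusted p = 0.176 in the authors' deposited table). Myl9 was 22.5 times as high as Myh11 per length in control and 40.7 times in mutant, and the part of smooth muscle cells in the Myl9 value was not tested. Markers of other cell types were read as well, and whether those cells express Myl9 was not tested. The authors' deposited test called none of 6 pericyte markers (1 at an unadjusted p under 0.05, summed level 136 RPKM in controls against 105 in mutants), none of 6 fibroblast markers (2 at that p, 505 against 625 RPKM) and none of 6 macrophage markers (2 at that p, 47.4 against 107 RPKM). The pericyte marker at that p was Abcc9, at 19.2 RPKM in controls against 7.46 in mutants. The fibroblast markers were Tcf21, at 8.47 and 24 RPKM, and Pdgfra, at 5.32 and 11.6 RPKM. The macrophage markers were C1qa, at 15.7 and 40.1 RPKM, and C1qb, at 16.1 and 42.4 RPKM. Among 5 ventricular markers none was called or reached that p in the same deposited table, with 3 listed above control and 2 below. The most abundant of them, Lbh, stood at 43.8 RPKM in controls and 102 in mutants.

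Light chains outside the list were called in 0 of 4 genes tested by the authors' deposited test, with 1 gene at an unadjusted p under 0.05. That gene was Myl12a, a regulatory chain of nonmuscle myosin, which the table lists under its older symbol 2900073G15Rik, at 28.7 RPKM in controls against 77.6 in mutants (p = 0.0165, adjusted p = 0.213 in the authors' deposited table). Its close copy Myl12b stood at 15.2 RPKM in controls and 16.9 in mutants, Myl6b at 0.922 and 1.03 RPKM, and Myl10 is listed at 0 in controls with 0.0189 RPKM in mutants. A protein coding row with the clone name AC170752.1 lies next to Myl6b, at 14.4 RPKM in controls against 16.4 in mutants. RefSeq (GRCm38.p6) places Myl6 beside Myl6b, but the files do not pair that row with Myl6, so no value is given for Myl6.

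Likeness of sequence bears on how reads could be assigned. Identity between coding sequences of the essential chains was 73.6% for Myl1 with Myl3, 73.6% for Myl1 with Myl4 and 78.1% for Myl3 with Myl4, over the aligned bases of GENCODE transcripts (release M21). The longest runs of identical coding bases are printed to show how far these genes match, with positions counted from 1 at the start codon of the first gene.
Myl1 and Myl4, from position 515: ccaatggctgcatcaactatgaagc
Myl1 and Myl3, from position 394: gtcttcgacaaggagggcaa
Myl3 and Myl4, from position 418: gaggacttcgtggaggggctgcgggtctt

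The longest of these runs is 29 bases, and none of the 30-base words of the Myl2, Myl3, Myl4, Myl7, Mylpf and Mylk3 transcripts occurred in a transcript of another gene. Myl1 shared 28.7% of its 1053 words with the pseudogene Mylf-ps, for which no row was matched. Myl9 shared 6 of 1099 words, with Myl12a, Myl12b and Gm2805. Myl12a and Myl12b, identical at 96.5% of coding bases, shared 31.4% and 17.6% of their words with other genes, among them the pseudogene Gm6517. Gm6517 stood at 38.7 RPKM in controls and 98.4 in mutants (adjusted p = 0.144 in the authors' deposited table), close to the values of Myl12a, so the levels of these genes are uncertain. Myl6 shared 59.1% of its words with 7 other genes. How the authors treated reads that match several places is not given in the sources used here.

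Mylk3 (mm9 chromosome 8, 87848202 to 87910244, minus strand) stood at 30.8 RPKM in controls and 19.5 in mutants. The authors' deposited table gives 0.633-fold with p = 0.245 and adjusted p = 0.782, and the interval ran from -1.77 to 0.45. The noncoding AA672651 lies inside the locus on the other strand, with 0.380 and 0.262 RPKM. Per length, the kinase stood at 2.50% of the level of its substrate Myl2 in control and 1.96% in mutant. Mylk, the smooth muscle kinase, stood at 2.46 RPKM in controls and 2.03 in mutants, so Mylk3 was 12.5 and 9.61 times as high. Mylk4 was listed at 2.26 and 2.21 RPKM, and Mylk2, the kinase of skeletal muscle, at 0.0697 RPKM in controls against 0.260 in mutants (p = 0.0468, adjusted p = 0.385 in the authors' deposited table).

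Of 21 genes listed around light chain phosphorylation, these 3 kinases included, 1 rose and none fell, with a median log2 change of -0.20. The gene that rose was Mylip, a ubiquitin ligase named for its interaction with a myosin regulatory light chain, from 2.26 to 8.73 RPKM, with adjusted p = 0.00907 in the authors' deposited table. Dapk3, a kinase that can phosphorylate regulatory chains, stood at 5.19 RPKM in controls and 13.8 in mutants (p = 0.00654, adjusted p = 0.121 in the authors' deposited table). Cit, citron kinase, was listed at 0.619 and 0.266 RPKM (p = 0.024, adjusted p = 0.266 in the authors' deposited table). The phosphatase that removes the phosphate was listed with its catalytic subunit Ppp1cb at 20.3 RPKM in controls against 43 in mutants, its targeting subunit Ppp1r12a at 19.8 and 20.3 RPKM and the targeting subunit Ppp1r12b at 6.74 and 4.91 RPKM, none of them called.

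**Figure D4:**
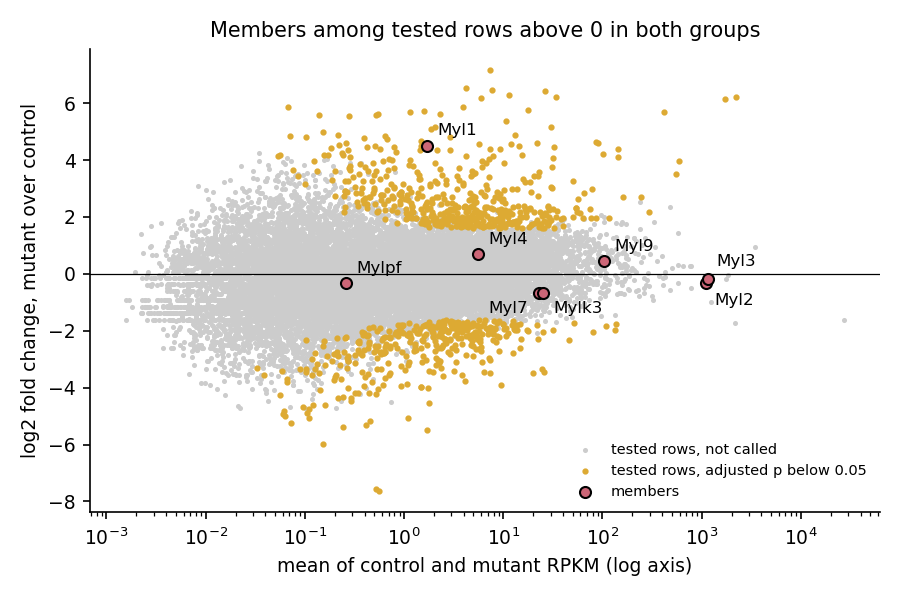
Log2 fold change, mutant over control, against the mean of the group RPKM values on a log axis, for the 20922 tested rows above 0 in both groups; called rows are yellow and the 8 genes are large red points. Myl1 lies among the called rises, while the other 7 points lie among rows that were not called.

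Of 13 heavy chain genes tested, 1 fell and none rose. Myh7b, a slow-type heavy chain, fell from 36.6 to 3.27 RPKM, with adjusted p = 4.04e-06 in the authors' deposited table. Myh7, the slow cardiac heavy chain, stood at 40.5 RPKM in controls and 25 in mutants, while Myh3 and Myh8, the heavy chains of developing skeletal muscle, reached at most 0.124 RPKM. The median log2 change of the heavy chain genes was -0.61. Of 17 transcription factors that set the identity of heart chambers or bind muscle promoters, none was called by the authors' deposited test, and 2 had an unadjusted p under 0.05. These were Tbx20 at 5.62 RPKM in controls against 14.4 in mutants (p = 0.0067, adjusted p = 0.123 in the authors' deposited table) and Tbx5 at 2.29 and 1.07 RPKM (p = 0.0462, adjusted p = 0.382 in the same deposited table). Srf, which binds the CArG box, stood at 9.90 RPKM in controls and 13.9 in mutants, and Mef2a at 26 and 12.6 RPKM.

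**Figure D5:**
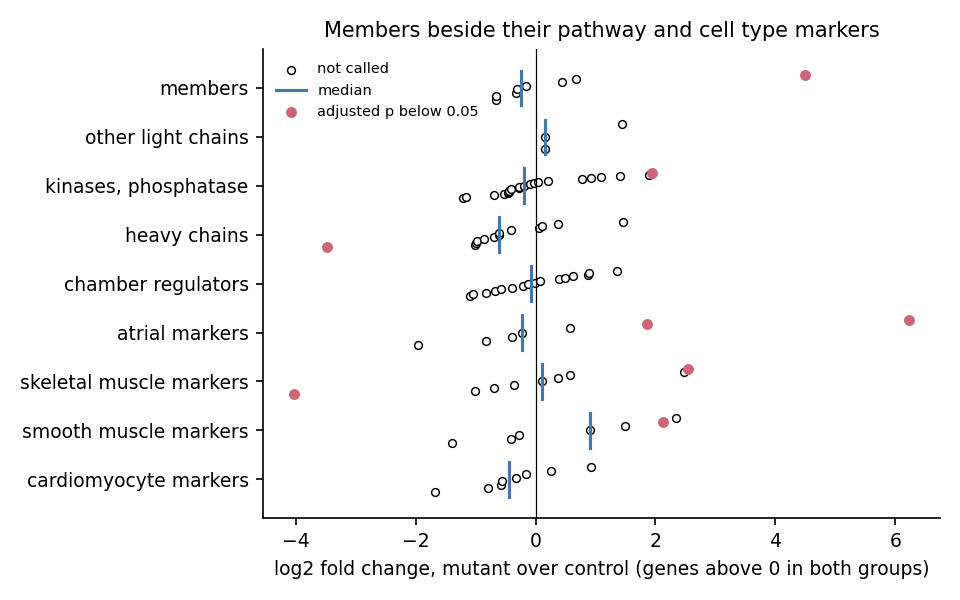
Log2 fold change, mutant over control, of each gene above 0 in both groups, by list; filled red points were called, open points were not, and blue bars are medians. Among the 8 genes of the top line Myl1 stands alone at 4.50, and the called points of the lists below include Mylip, Myh7b, Nppa, Mybpc2, Tnni2 and Tagln.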

How the data were processed

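RNA of ventricles from 4 mice, 2 per group, was sequenced. RPKM was computed by the authors, who deposited 1 value per group. Beside it, per the file headers, stand a fold (a ratio, here mutant over control), the log2 of that fold, and a p-value before and after adjustment. The submitters' processing notes list mm9 as the build and Bowtie (0.12.9) and DESeq as tools, without saying what each did. Which annotation, read counter and strand setting were used, and the depth, is not given in the sources used here.

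Of 36814 rows, 12360 were at 0 in both groups and were not tested. The deposited fold differed from the ratio of RPKM values by at most 0.971% in 10320 rows of at least 1 RPKM in both groups, and was used for log2 changes, because the deposited log2 column does not separate folds of 0 from infinite ones. A Benjamini-Hochberg adjustment over the 24454 rows tested came within 0.593% of the deposited values.

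Intervals (95%) took the size of the log2 change over the normal quantile of the deposited p as its error, which assumes a normal scale. This step was run on data simulated on that same normal scale, which checks the computation only. Whether the intervals hold for read counts, above all for genes with few reads, was not tested. The worth of a read was the level times the length of short RNA rows seen in 1 group alone, at their 2 lowest steps. Coding sequences were aligned with Biopython 1.88 in Python 3.11.15. The genes and lists were chosen with earlier results of these data known. All members were described; from each other list the text names called genes, those at an unadjusted p under 0.05 or the most abundant, and further genes chosen after their values were seen. How the authors estimated the spread behind their p-values is not given in the sources used here. With group values alone, no model across animals could be fitted. Alternatives were other thresholds, other rows for the adjustment, pseudocounts of 0.1 and 1 RPKM, centring, and other denominators of shares. Values of 1 listed gene are not reported here.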

Additional observations from a re-analysis of the deposited data

How the results depend on the processing

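The call of Myl1 and the lack of a call for the other 7 genes were the same under adjusted p thresholds of 0.1 and 0.01. These thresholds could not change a label and add no support. In the authors' deposited test the adjusted p was 1.94e-07 for Myl1 and 0.681 or more for the other 7 genes. The adjustment recomputed over rows averaging 1 RPKM or more leaves out Mylpf and holds Myl1 only through its mutant value, so it adds no support for that call. Pseudocounts cannot turn a direction, and centring moved every gene by 0.08 on the log2 scale, less than the smallest change among the 8 genes, so neither tests the directions. The pseudocount of 1 RPKM brought the log2 change of Myl1 from 4.50 to 1.91. With Myl9, Myl10, Myl12a and Myl12b added to the regulatory chains, Myl2 made up 88.5% in control and 81.1% in mutant, Myl7 2.01% and 1.44%, and Mylpf 0.0206% and 0.0187%. The other 14 of 20 recomputed shares moved by under 0.5% of their value. Rows called in either direction numbered 859 at a threshold of 0.05 and 497 at 0.01, and 712 with the adjustment over rows of at least 1 RPKM. No paired analysis was possible because the deposited table has 1 value per group; leaving out an animal was not possible for the same reason. Depth limits Myl1 in control and Mylpf in both groups, which rest on few reads by the estimate given.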
